A study of Mus musculus with 18 samples.

Results

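The imprinted growth genes described here are 10 of the 36655 gene symbols in the deposited table of expression values: Igf2, H19, Dlk1, Igf2r, Grb10, Cdkn1c, Mest, Ndn, Peg3 and Plagl1. They were taken by symbol, not by their values, and all 10 were found in all 18 libraries' columns. Each of the 10 was above 0 in at least 1 library. Igf2, H19, Cdkn1c, Ndn and Peg3 lie on chromosome 7, Mest on 6, Plagl1 on 10, Grb10 on 11, Dlk1 on 12 and Igf2r on 17. The study followed blood-forming cells and fibroblasts of the mouse through the first days of reprogramming towards induced pluripotent stem cells, and measured their RNA by sequencing. Expression is given as FPKM, fragments counted per length of transcript and scaled to the library's mapped fragments, which corrects for gene length and so allows levels to be set side by side between genes.

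All cells came from C57BL/6 animals that were themselves derived wholly from induced pluripotent cells and carry Oct4, Sox2, Klf4 and c-Myc in the genome under doxycycline control, so the uncultured cells and the controls carry the inducible factors too. The blood cells were haematopoietic stem cells of the long-term kind (LT-HSC) and the short-term kind (ST-HSC), and myeloid progenitors (MP). Each of these 3 cell types was sequenced uncultured (0), after 2 and 4 days of culture without doxycycline (2N and 4N), and after 2 and 4 days with it (2D and 4D). Fibroblasts were sequenced at 0, 2D and 4D, with no culture control. The fibroblasts at 0 are called uncultured here after their title, which gives the cell type and day alone. Whether they had been grown before doxycycline cannot be read from that title. The N libraries carry a doxycycline entry of "Yes" in the sample records, which conflicts with their titles and with the series design in all 6 cases, and they are taken here as cultures without doxycycline. The age and sex of the animals, and whether cells of several animals were pooled, are not given in the labels.

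An imprinted gene is expressed mainly from the copy inherited from 1 parent, because DNA methylation laid down in the egg or sperm marks the copies differently. Many imprinted genes act on growth before birth: genes expressed from the paternal copy tend to promote it and genes expressed from the maternal copy tend to restrain it. Several of them are high in fetal tissues, fall after birth and are kept in some adult stem cells, haematopoietic stem cells included, and some lose or gain imprinting during reprogramming. FPKM sums both parental copies, so it gives the amount of RNA and says nothing about which copy it came from.

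The sequences just upstream of Mest, Grb10 and Plagl1 are shown first, because these were the 3 members that passed the test between cultures with and without doxycycline. Each window holds the 250 bases before an annotated transcription start, 5′ to 3′ on the strand of the gene, from RefSeq on the GRCm38.p6 build. Capitals mark CpG dinucleotides, at which DNA methylation can occur. No methylation was measured, and the windows were not chosen as regions that carry an imprint. The FPKM themselves were made on the older build mm9, so these coordinates apply to the sequences only. For Mest the table lists separate upstream and downstream starts, and both are given.
Mest upstream start, chr6:30733256-30733505, plus strand: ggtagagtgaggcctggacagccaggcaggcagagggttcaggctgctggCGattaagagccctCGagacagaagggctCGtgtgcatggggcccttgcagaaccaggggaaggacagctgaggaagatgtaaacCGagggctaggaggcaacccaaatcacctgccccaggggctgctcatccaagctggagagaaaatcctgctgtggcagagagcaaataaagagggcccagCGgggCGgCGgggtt
Mest downstream start, chr6:30737800-30738049, plus strand: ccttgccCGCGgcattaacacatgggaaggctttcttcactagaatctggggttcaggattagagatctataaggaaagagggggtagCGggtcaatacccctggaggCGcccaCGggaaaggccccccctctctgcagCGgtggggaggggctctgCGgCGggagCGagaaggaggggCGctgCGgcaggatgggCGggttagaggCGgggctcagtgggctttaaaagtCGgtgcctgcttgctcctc
Plagl1, chr10:13090582-13090831, plus strand: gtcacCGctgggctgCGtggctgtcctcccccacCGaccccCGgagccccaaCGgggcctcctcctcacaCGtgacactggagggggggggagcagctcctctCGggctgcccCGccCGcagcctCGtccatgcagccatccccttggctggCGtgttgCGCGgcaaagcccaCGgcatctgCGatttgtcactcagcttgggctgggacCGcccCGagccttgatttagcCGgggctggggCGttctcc
Grb10, chr11:12037421-12037670, minus strand: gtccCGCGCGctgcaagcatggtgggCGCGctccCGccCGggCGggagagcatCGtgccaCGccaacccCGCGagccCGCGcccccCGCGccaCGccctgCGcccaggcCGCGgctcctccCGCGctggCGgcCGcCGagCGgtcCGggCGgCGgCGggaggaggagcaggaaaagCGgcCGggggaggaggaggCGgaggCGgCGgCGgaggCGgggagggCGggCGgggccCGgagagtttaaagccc

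The CpG content differed widely among these windows. The Grb10 window shown held 40 CpGs, and 98.7% of the 32851 windows of the same length in the RefSeq table held fewer. A second Grb10 start in the table, at chr11:12027972-12028221, held 8, and 57% of windows held fewer. Plagl1 held 19, the downstream start of Mest 14 and its upstream start 7, against a median of 6 over all windows. Igf2r, the receptor described below, held 27 in its window on chromosome 17. RefSeq windows were found for 8 of the 10 members; H19 and Cdkn1c had no entry.

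The windows were searched on both strands for 5 short motifs. None of the 5 was found in any window of Mest or Grb10. ATTTGCAT, the octamer bound by Oct4 and related factors, was present in 1.6% of all windows. CATTGTT, a core of Sox sites, was present in 3.29%, CCACACCC, a box bound by Klf factors, in 3.2%, and the Myc box CACGTG in 6.02%. GGGGCCCC, which is part of the site bound by Plagl1 itself, was present in 0.889%. CACGTG occurred 1 time in the Plagl1 window and 2 times in that of Igf2r, CATTGTT in 1 of the 4 Igf2 windows, and CCACACCC and GGGGCCCC 1 time each in that of Peg3. A match or its absence describes these letters in these windows and no binding was measured.

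Each condition was 1 library, and the blood libraries were amplified from 25 hand-picked cells each whereas the fibroblast libraries were made from bulk RNA by a standard route. Levels in fibroblasts and blood cells were thus measured by different library methods. The sequencing depth is unknown, and a gene listed at 0 may be a failed estimate or a transcript missed among so few cells. With 10478 to 11365 genes at FPKM 1 or more per blood library and 11833 to 12425 per fibroblast library, no library stood apart in the number of genes detected. By its markers, however, the uncultured LT-HSC library stood apart from its label: the summed FPKM of 8 myeloid progenitor markers was 42398 there, near the 59308 of uncultured MP and far above the 1639 of uncultured ST-HSC. All 10 stem cell markers were above 0 in the same library. The summed FPKM of 14 fibroblast and mesenchymal markers was 3.68 to 37 in the 15 blood libraries and 779 to 13225 in the fibroblast libraries. In the blood libraries Dcn, Lum, Postn and Loxl1 were listed at 0 throughout. The other markers of the list were each above 0 in at least 1 of them. Col1a2 was at 32.3 in MP 2D, Thy1 at 16.5 in ST-HSC 4N and Pdgfrb at 14.6 in LT-HSC 0. In bulk samples fewer cells of a type and less RNA per cell cannot be told apart.

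**Figure D1:**
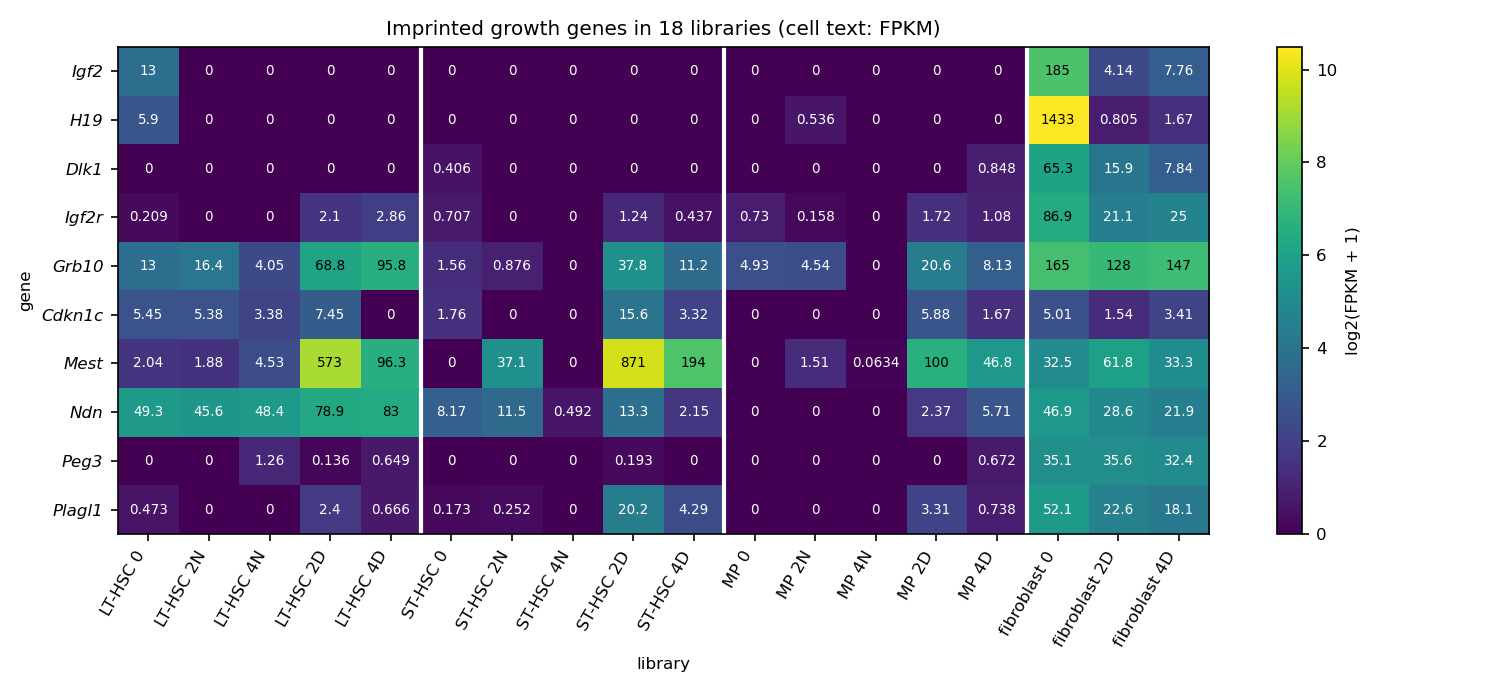
FPKM of the 10 genes (rows) in the 18 libraries (columns, grouped by cell type), coloured by log2(FPKM + 1) with the FPKM written in each cell. Mest, Grb10 and Plagl1 are higher in D than in the matching N library of all 3 blood cell types, while Igf2, H19, Dlk1 and Peg3 are at or near 0 in most blood libraries and high in uncultured fibroblasts.

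Setting each D culture against the N culture of its own cell type and day asks what induction of the factors changed beyond the effect of culture. Mest, Grb10 and, at the edge of the threshold, Plagl1 were higher with doxycycline. None of the 10 genes passed in the other direction. Of the 10, 5 reached a mean of 1 FPKM over the 12 libraries and could be tested, and 3 of those 5 were called higher, against 4.53% of all 12254 genes tested. Plagl1 reached that mean through the D libraries alone (mean 5.27 FPKM in D and 0.0421 in N), so its place among the tested genes depends on the difference itself and the count is given as a description. The median log2 difference over all genes tested was 0.0205. Differences are on the scale of log2(FPKM + 1), which understates the change of genes with low values, and the p-values are from limma with Benjamini-Hochberg adjustment over all genes tested. Since single libraries of different cell types and days serve as replicates, these p-values measure the spread between the 6 pairs of cell type and day.

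Mest (ENSMUSG00000051855) encodes a protein of the alpha/beta hydrolase fold that is abundant in embryonic mesoderm and is expressed from the paternal copy. Its FPKM without doxycycline was 1.88, 37.1 and 1.51 in LT-HSC, ST-HSC and MP at day 2, and 4.53, 0 and 0.0634 at day 4. With doxycycline the level was 573, 871 and 100 at day 2 and 96.3, 194 and 46.8 at day 4. Every D library lay above every N library, and the lowest of them, MP at day 4, was above the highest N library, ST-HSC at day 2. In the 5 pairs with an N level above 0, the ratio of D to N ran from 21.3 in LT-HSC at day 4 to 737 in MP at day 4, where the N level was close to 0; ST-HSC at day 4, listed at 0 in N, gives no ratio. The fitted log2 difference was 5.79 ± 0.491 (SE, 6 pairs; limma adjusted p = 2.20e-04), and leaving out each pair in turn gave 5.42 to 6.12. Mest was the highest of the 10 genes in all 6 D libraries. At day 4 its D level was below that at day 2 in all 3 cell types; this change over time was not tested. Copg2 overlaps the Mest locus on the opposite strand, and as the strand setting of the counting is not given, reads of such partners cannot be told apart. It was at 0.332 to 7.07 FPKM in the D libraries and 0.183 to 3.54 in N.

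Grb10 (ENSMUSG00000020176) encodes an adaptor protein that binds the insulin and IGF1 receptors and damps their signal. In the N libraries it was at 16.4, 0.876 and 4.54 FPKM in LT-HSC, ST-HSC and MP at day 2 and at 4.05, 0 and 0 at day 4. In the D libraries it was at 68.8, 37.8 and 20.6 at day 2 and at 95.8, 11.2 and 8.13 at day 4. The D library was the higher one in 6 of 6 pairs, but the groups overlapped across cell types, because N cultures of LT-HSC at day 2 were above D cultures of ST-HSC and MP at day 4. The fitted log2 difference was 3.23 ± 0.419 (limma adjusted p = 0.00202), and it ran from 1.97 in MP at day 2 to 4.37 in ST-HSC at day 2. Leaving out each pair gave 3 to 3.49 with adjusted p of 0.00475 to 0.00867.

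Plagl1 (ENSMUSG00000019817) encodes a zinc finger transcription factor that can halt the cell cycle and is known as a regulator of other imprinted genes. It was listed at 0 in 5 of 6 N libraries and at 0.252 FPKM in the remaining one, ST-HSC at day 2. In D it was at 2.40, 20.2 and 3.31 FPKM in LT-HSC, ST-HSC and MP at day 2, and at 0.666, 4.29 and 0.738 at day 4. All 6 D libraries lay above all 6 N libraries, and ST-HSC had the highest D level at both days. The fitted log2 difference was 1.98 ± 0.522 (limma adjusted p = 0.0439). This call was at the edge of the threshold: it ended with any of the 6 pairs left out (adjusted p 0.0549 to 0.114) and without the filter on low values (0.0548), with log2 differences of 1.56 to 2.23.

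Igf2r (ENSMUSG00000023830) encodes the receptor that takes up IGF2 and delivers it to the lysosome for breakdown, and it is expressed from the maternal copy. It was listed at 0 in 5 of 6 N libraries, with 0.158 FPKM in MP at day 2. In D its FPKM was 2.10, 1.24 and 1.72 at day 2 and 2.86, 0.437 and 1.08 at day 4, in LT-HSC, ST-HSC and MP. No N library reached any D library, although all these levels are low. Its mean FPKM of 0.8 kept it out of the test; fitted without that filter, the difference was 1.26 ± 0.291 (limma adjusted p = 0.0451). Airn, the noncoding RNA that overlaps Igf2r on the other strand, was listed at 0 in all blood libraries but 2, MP 2D at 0.8 and ST-HSC 4D at 3.07. Mest, Plagl1 and Igf2r were thus the 3 members whose D libraries lay wholly above the N libraries, against 2.3% of the 16430 genes above 0 in these libraries. All members but Igf2 were among those genes. Plagl1 and Igf2r were both listed at 0 in 5 of 6 N libraries, so this count too is given as a description.

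Ndn and Cdkn1c did not pass the test. Ndn (ENSMUSG00000033585) encodes necdin, a growth-restraining protein expressed from the paternal copy and known in quiescent haematopoietic stem cells. Its FPKM in N and D cultures was 45.6 and 78.9 in LT-HSC at day 2, 48.4 and 83.0 in LT-HSC at day 4, and 11.5 and 13.3 in ST-HSC at day 2. The remaining pairs were 0.492 and 2.15 in ST-HSC at day 4, 0 and 2.37 in MP at day 2, and 0 and 5.71 in MP at day 4. D was the higher value in 6 of 6 pairs, yet the groups overlapped, with the LT-HSC libraries of both groups above all others, and the log2 difference of 1.22 ± 0.389 missed the threshold (limma adjusted p = 0.0852).

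Cdkn1c (ENSMUSG00000037664) encodes p57, an inhibitor of cyclin-dependent kinases expressed from the maternal copy and known for keeping haematopoietic stem cells out of the cycle. In N it was at 5.38 and 3.38 FPKM in LT-HSC at days 2 and 4 and listed at 0 in ST-HSC and MP. In D it was at 7.45, 15.6 and 5.88 in LT-HSC, ST-HSC and MP at day 2 and at 0, 3.32 and 1.67 at day 4. D was the higher value in 5 of 6 pairs, and the pair that went the other way was LT-HSC at day 4. The log2 difference was 1.44 ± 0.719 (limma adjusted p = 0.262).

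The remaining 4 genes were near 0 in cultured blood cells and were not tested. Igf2 (ENSMUSG00000048583), the fetal insulin-like growth factor, was listed at 0 in all 12 cultured blood libraries. H19 (ENSMUSG00000000031), the noncoding RNA that shares the Igf2 locus and its enhancers and is expressed from the maternal copy, was listed at 0 in 11 of them, with 0.536 FPKM in MP 2N. Dlk1 (ENSMUSG00000040856), a membrane protein related to Notch ligands, was above 0 in MP 4D alone, at 0.848. Peg3 (ENSMUSG00000002265), a zinc finger protein expressed from the paternal copy, was at 1.26 in LT-HSC 4N, at 0.136 and 0.193 in LT-HSC and ST-HSC 2D, at 0.649 and 0.672 in LT-HSC and MP 4D, and listed at 0 in the other 7. No member of these 4 therefore reached an FPKM of 1 with doxycycline in blood cells.

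**Figure D2:**
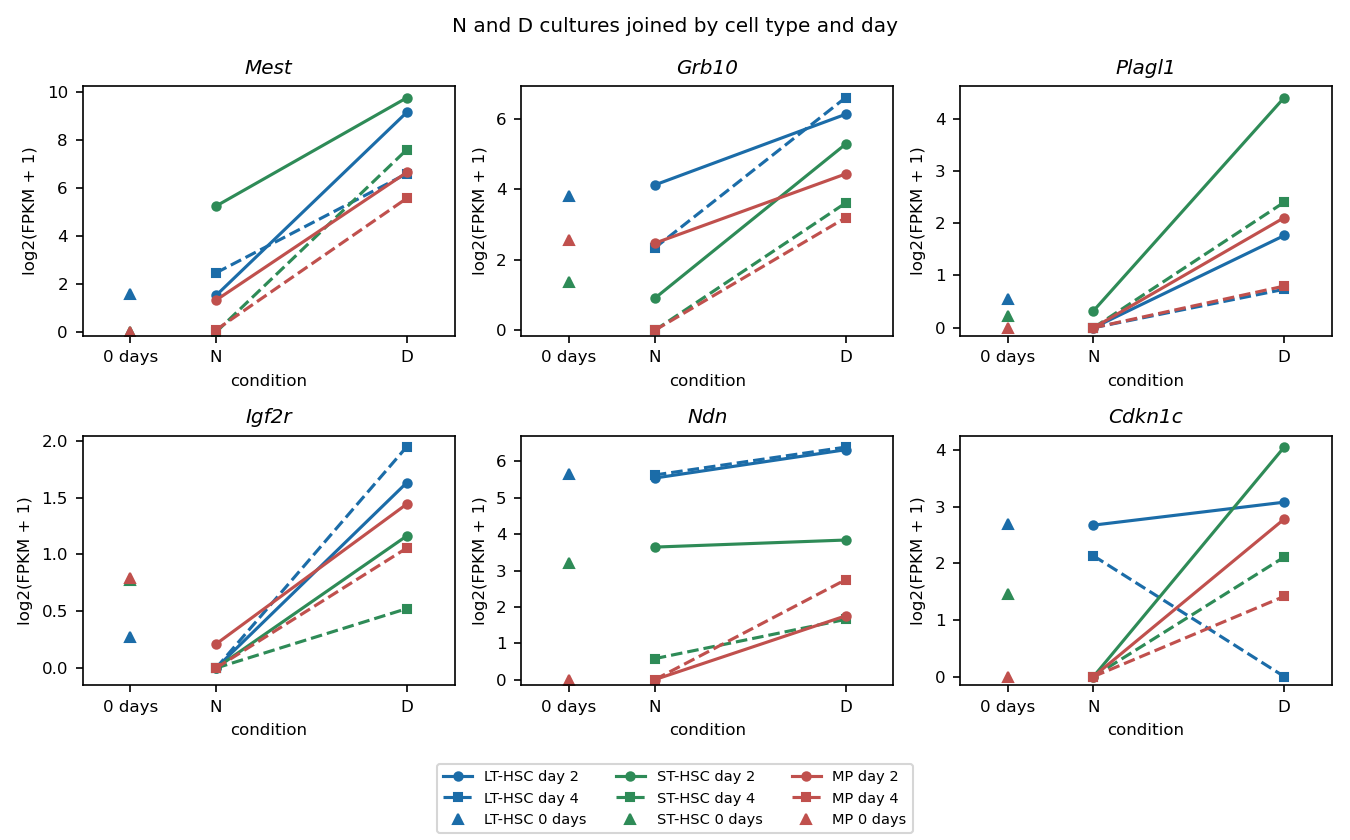
Each line joins the N and the D library of 1 cell type and day (log2(FPKM + 1) on the vertical axis), with uncultured libraries as triangles, for the 6 genes that reached 1 FPKM in 4 or more D libraries. Mest, Grb10, Plagl1, Igf2r and Ndn are higher in D in 6 of 6 pairs and Cdkn1c in 5 of 6.

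Other markers moved in the same cultures. Of 8 myeloid markers 6 were lower in D than in N, and of 8 pan-leukocyte markers 5 were, against 4.44% of all 12254 genes tested that were lower. Among the 6, Csf1r reached the filter through N alone, at 0.0632 to 76.9 FPKM in N and at most 0.147 in D. The myeloid count is thus given as a description. The summed FPKM of the pan-leukocyte markers was 2921 and 2314 in ST-HSC 2D and 4D and 8.06 to 310 in the other 4 D libraries. Those 2 ST-HSC libraries had the highest Plagl1, at 20.2 and 4.29 FPKM, with MP 2D close to the second at 3.31. Grb10 was instead highest in LT-HSC 4D and 2D (95.8 and 68.8), where the sum was 29.5 and 310. Mest was highest in ST-HSC 2D (871) and then in LT-HSC 2D (573). A list of 8 embryonic erythroid and hepatic markers summed to 67.1 to 6894 in D and 2.92 to 45 in N. In D nearly all of that was the embryonic globin Hbb-y, which was higher than in N, while the fetal liver protein Afp was lower (-1.85 ± 0.444, adjusted p = 0.0307) and made up most of the sum in several N libraries. Hba-x, Hbb-bh1, Alb and Ttr were listed at 0 in all 15 blood libraries. The fibroblast and mesenchymal markers summed to 3.68 to 37 in D and 7.55 to 25.8 in N. Of the 4 of them tested, the matrix protein Fbn1 was higher (1.73, limma adjusted p = 0.0461) and the receptor Pdgfrb (-2.15) and the surface antigen Thy1 (-2.31) were lower. Fbn1 reached the filter through D alone, at 0.523 to 6.56 FPKM in D and 0 to 0.434 in N. Pdgfrb (0 to 2.34 in D) and Thy1 (0 to 0.928 in D) reached it through N alone. Of 10 stem cell markers 1 was higher, the transcription factor Mecom (2.48, adjusted p = 0.00754). The part of these markers in the differences of Mest, Grb10 and Plagl1 was not tested.

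Whether the D minus N difference changed between days or between cell types was tested as an interaction. None of the 5 tested members passed in either fit, and the background was 0% of 12254 genes in both (511 genes at an unadjusted p under 0.05 by day and 1018 by cell type). For Mest the change from day 2 to day 4 was -0.09 ± 1.037, and for Grb10 it was 0.91 ± 0.833. With standard errors of this size the change between days is poorly determined.

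Culture without doxycycline was compared with uncultured cells. None of the 5 members tested passed, against 8.89% of 12060 genes (3254 at an unadjusted p under 0.05 among all genes). Uncultured LT-HSC, ST-HSC and MP held Mest at 2.04, 0 and 0 FPKM, Grb10 at 13, 1.56 and 4.93, Ndn at 49.3, 8.17 and 0 and Cdkn1c at 5.45, 1.76 and 0. The fitted log2 difference of N from uncultured was 1.24 ± 1.012 for Mest, -0.94 ± 0.677 for Grb10, -0.39 ± 0.652 for Ndn and -0.58 ± 0.551 for Cdkn1c (limma adjusted p from 0.394 to 0.734). For Mest the size rests on ST-HSC 2N at 37.1 FPKM, and without that library the difference was 0.40, or 0.55 without ST-HSC 0. That of Ndn was 0.10 without ST-HSC 4N and -0.03 without ST-HSC 0, and that of Cdkn1c was -0.14 without ST-HSC 0, so no direction can be given for these genes. In uncultured LT-HSC, ST-HSC and MP Igf2r was at 0.209, 0.707 and 0.730, above all 6 N libraries, a separation that 3.36% of 15525 genes showed in that direction. Igf2r was too low for the main test. Fitted without the filter on low values, its difference was -0.58 ± 0.227 and did not pass (limma adjusted p = 0.179).

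Igf2 and H19 were detected among uncultured blood cells in LT-HSC only, at 13 and 5.90 FPKM. That is the library with the high myeloid markers; its fibroblast and mesenchymal markers summed to 19.5 FPKM, of which Pdgfrb gave 14.6, Thy1 2.57, Fbn1 1.75 and Twist1 0.554, and the remaining 10 of the 14, the collagens among them, were listed at 0. Both genes were listed at 0 in uncultured ST-HSC and MP. The fitted Igf2 difference of -1.27 ± 0.772 between N and uncultured cells therefore rests on 1 library (limma adjusted p = 0.314).

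Cultures with doxycycline were compared with uncultured cells, a comparison that shares its D libraries with the first and its uncultured libraries with the second. Mest and Grb10 passed in the direction of higher levels, 2 of 7 members tested, where 9.16% of 12539 genes did. Mest reached the mean of 1 FPKM through the D libraries alone (mean 314 FPKM in D and 0.681 uncultured). So did Plagl1 (5.27 and 0.216) and Igf2r (1.57 and 0.548), and Igf2 reached it through uncultured cells alone. The count is therefore given as a description. Mest differed by 7.03 ± 0.718 log2 units (limma adjusted p = 5.26e-04). Grb10 differed by 2.29 ± 0.546 (0.0211), and its call ended without uncultured LT-HSC (2.17, adjusted p = 0.107) or uncultured ST-HSC (1.90, 0.0944), at a difference of similar size. In uncultured LT-HSC, ST-HSC and MP the FPKM of Plagl1 was 0.473, 0.173 and 0, and its difference of 1.77 ± 0.719 missed the threshold (0.117). The D libraries lay wholly above the uncultured ones for Mest and Plagl1, as they did for 8.07% of 16305 genes, so this separation is not rare between these groups. Igf2r, Ndn, Cdkn1c and Igf2 had log2 differences of 0.68, 0.83, 0.86 and -1.27 and adjusted p of 0.284 to 0.525. These values hang on single libraries: Igf2r was at 0.27 without LT-HSC 0, Ndn at 0.13 without MP 0, and Cdkn1c at 0.23 without MP 0 and 1.86 without LT-HSC 0.

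**Figure D3:**
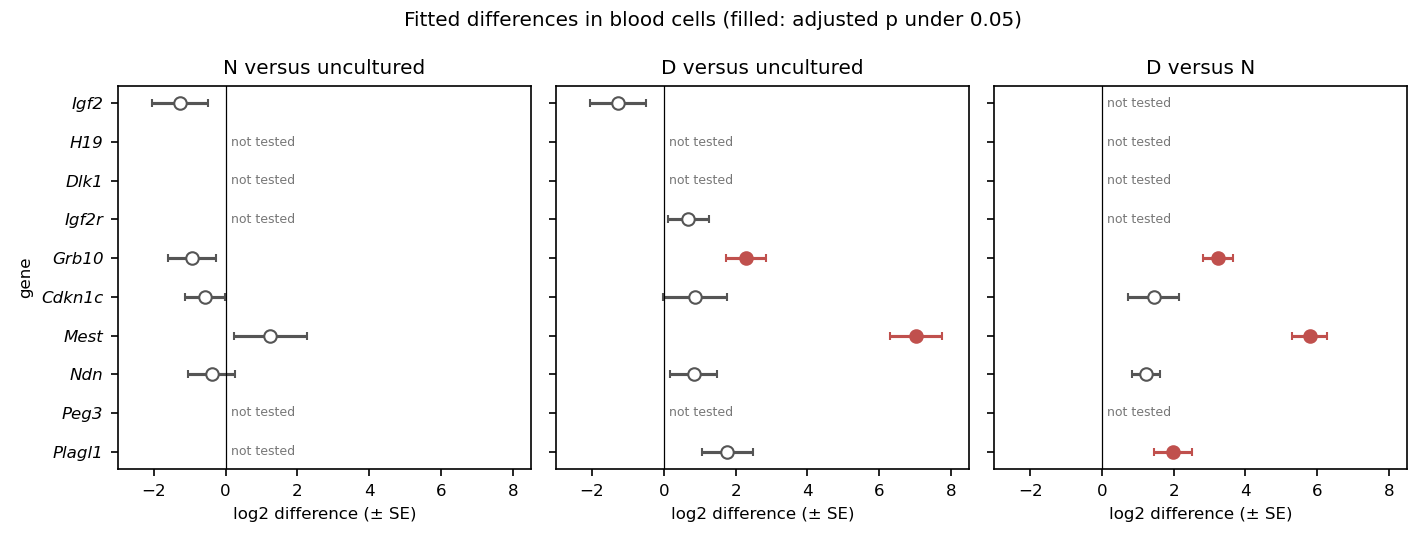
Fitted log2 differences (points) with standard errors (bars) of the 10 genes in the 3 comparisons among blood cells; filled points have a limma adjusted p under 0.05, and those under a mean FPKM of 1 were not tested. Mest and Grb10 are filled in both comparisons of D libraries, Plagl1 in D versus N alone, and none in N versus uncultured.

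Across the blood cell types, Ndn gave the clearest order among the 10 genes. It was at 45.6 to 83.0 FPKM in the 5 LT-HSC libraries, at 0.492 to 13.3 in ST-HSC and at 0 to 5.71 in MP, with LT-HSC above the others at every condition. The log2 difference of ST-HSC from LT-HSC was -3.33 ± 0.537 and that of MP from the mean of the stem cells was -3.34 ± 0.918, and neither passed (limma adjusted p = 0.277 and 0.144). ST-HSC and MP overlapped. Grb10 too had the greater value in LT-HSC than in ST-HSC in all 5 conditions, with a difference of ST-HSC from LT-HSC of -2.37 ± 0.44 that did not pass (adjusted p = 0.287). Mest, Plagl1 and Cdkn1c had no order that held over all conditions. With doxycycline ST-HSC had the highest level of all 3 genes at both days, whereas among uncultured cells LT-HSC had it. None of 5 members passed between MP and stem cells, against 0.297% of 12453 genes (1688 at an unadjusted p under 0.05). None of 6 passed between ST-HSC and LT-HSC, where the background was 0% of 12419 genes (811 at an unadjusted p under 0.05).

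Fibroblasts carried RNA of all 10 genes at all 3 times. H19 was at 1433 FPKM in uncultured fibroblasts and at 0.805 and 1.67 after 2 and 4 days of doxycycline, 1780 and 860 times lower. Igf2 went from 185 to 4.14 and 7.76, which is 44.8 and 23.9 times lower, and Dlk1 from 65.3 to 15.9 and 7.84, 4.1 and 8.33 times lower. These 3 of the 9 genes that reached FPKM 10 were more than 4-fold lower at both days and 0 were higher, against 5.1% of 8842 genes lower by the same rule. H19 and Igf2 reached FPKM 10 through the uncultured library alone, so their place among the 9 depends on the difference itself. This count is given as a description. Each time is 1 library, and no test was run on the fibroblasts alone.

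The other 7 genes did not pass that rule in fibroblasts. Igf2r went from 86.9 FPKM to 21.1 and 25.0, 4.12 and 3.47 times lower, which at day 2 is as far as Dlk1 and at day 4 lies just outside the rule. Plagl1 went from 52.1 to 22.6 and 18.1, and Ndn from 46.9 to 28.6 and 21.9. Grb10 stayed at 165, 128 and 147 and Peg3 at 35.1, 35.6 and 32.4. Mest, the gene with the greatest D minus N difference among the members in blood cells, was at 32.5, 61.8 and 33.3, and Cdkn1c was at 5.01, 1.54 and 3.41. Mesenchymal markers were also lower with doxycycline: their sum was 13225 FPKM uncultured, 779 at day 2 and 2194 at day 4. Of the 13 at FPKM 10 or more 8 were past the same fold, while Dcn went from 36.5 to 11 and 70. From day 2 to day 4 the sum rose, whereas Dlk1 fell further. H19 went from 0.805 to 1.67 FPKM and Igf2 from 4.14 to 7.76, low values in 1 library per time. The part of these markers in the levels of H19, Igf2 and Dlk1 was not tested. Without a fibroblast culture lacking doxycycline, culture and induction cannot be told apart. The entry for Mir675, the microRNA made from H19 RNA, was at 201, 0 and 0 FPKM in the 3 libraries, and reads of it cannot be told apart from those of its host.

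**Figure D4:**
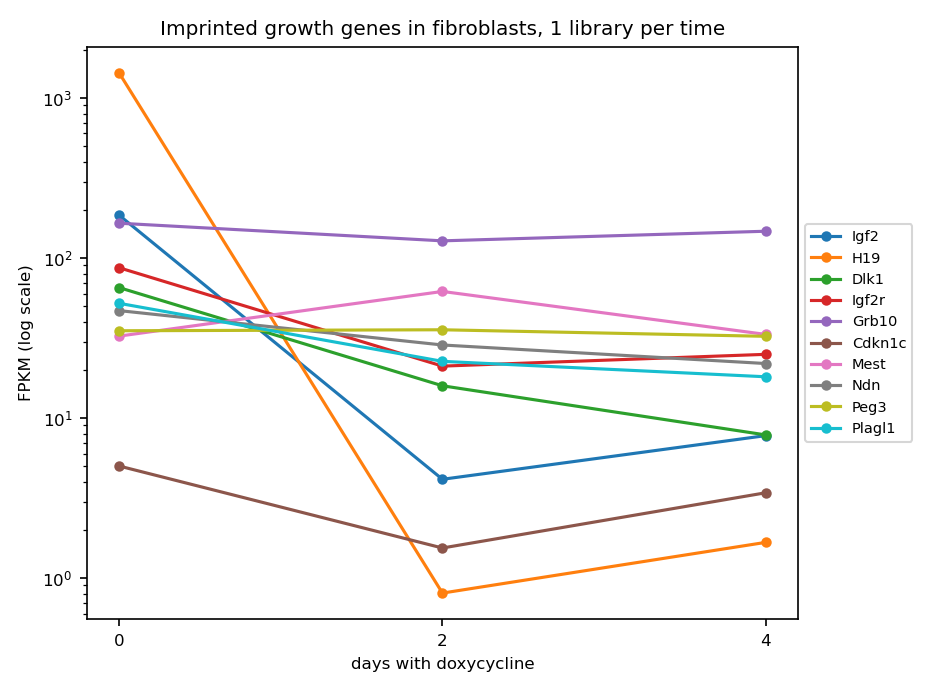
FPKM of the 10 genes (log scale) in fibroblasts at 0, 2 and 4 days with doxycycline, 1 library per time. H19 goes from 1433 to 0.805 and 1.67 and Igf2 from 185 to 4.14 and 7.76, whereas Grb10 and Peg3 stay within 128 to 165 and 32.4 to 35.6.

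Whether fibroblasts and blood cells changed differently from uncultured to D was tested as an interaction over 12 libraries. H19 was the single member of 10 that passed, with a difference of -8.42 ± 1.114 (fibroblasts minus blood; limma adjusted p = 0.0151), where 0.521% of 13235 genes passed in that direction. Blood cells had little H19 to lose, since it was listed at 0 in uncultured ST-HSC and MP and in all 6 D libraries. The uncultured fibroblasts are 1 library, which could not be left out and gives no spread of its own. H19 reached the mean of 1 FPKM through that library alone (1433 FPKM), so the count is given as a description. The difference was -8.14 without fibroblast 2D (adjusted p = 0.133) and -8.70 without 4D (0.0867), and no gene of the whole table passed in either of those fits. It was -8.18 (0.2) when 0.1 was added before the log in place of 1. For Mest the difference was -6.56 ± 1.441 without passing (0.0775), and there it came from the higher levels in blood, since Mest was not lower in fibroblasts. Igf2, Dlk1 and Igf2r stood at -3.53, -2.42 and -2.56 and did not pass either.

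Among the members, Mest and Plagl1 varied most alike over the 15 blood libraries, with a Pearson correlation of 0.83 on the log2 scale. Igf2r and Grb10 followed at 0.77 and Grb10 and Mest at 0.72, while Plagl1 and Ndn stood at 0.14. The libraries share cell types, days and treatments, so these values describe a common pattern over 15 points and carry no test. Over the 12453 genes whose mean reached 1 FPKM, those most like Mest were the embryonic globin Hbb-y (0.936), Btbd3 (0.932) and the transcription factor Sox21 (0.927). For Plagl1 they were Esm1 (0.968), Rai2 (0.943) and the complement receptor Cr2 (0.943), and for Grb10 the proteoglycan Sdc2 (0.889), the Wnt receptor Ryk (0.879) and Armcx2 (0.872). Ndn was most like Wwtr1 (0.890), Clip3 (0.859) and Gm16140 (0.855). Igf2r was most like desmoplakin, Dsp (0.906), Cdc14b (0.898) and Pdha1 (0.894), and Cdkn1c like Ctdsp2 (0.897), Smad1 (0.884) and Jam2 (0.877).

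Further imprinted genes were read between D and N against the same background, 4.53% of genes higher and 4.44% lower. Of 20 other genes expressed from the paternal copy 8 could be tested and 1 was higher, with a median log2 difference of 0.29. That gene was Nnat, a small membrane proteolipid of developing brain, which reached the filter through its D libraries alone and was listed at 0 in every N and uncultured blood library. With doxycycline it was at 39.2, 36.6 and 2.31 FPKM in LT-HSC, ST-HSC and MP at day 2 and 4.59, 5.34 and 2.85 at day 4 (3.23 ± 0.59, limma adjusted p = 0.0102). Of 20 other genes expressed from the maternal copy 13 were tested and 0 passed, with a median of 0.74.

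The IGF pathway and the proteins that maintain imprints were read in the same way, where a single call among so few genes says little beside that background. Of 15 IGF ligand, receptor and binding protein genes 6 were tested between D and N, 0 were higher and 1, the binding protein Igfbp7, was lower. Of 13 genes that set or maintain imprints 9 were tested, 0 were higher and 1, the maintenance methyltransferase Dnmt1, was lower, by 0.87 log2 units (-0.87 ± 0.197, adjusted p = 0.025). The median log2 difference was 0.28 for the first list and -0.04 for the second.

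The same lists were read for culture without doxycycline. Between N and uncultured cells 3 of 14 tested genes of the maternal list were lower and 0 higher, where 3.08% of the 12060 genes tested were lower. The noncoding RNA Meg3, the partner of Dlk1 at its locus, was found in uncultured LT-HSC (17.7 FPKM) and ST-HSC (26.3) and listed at 0 in all 6 N libraries (-3 ± 0.825, adjusted p = 0.0474). The tetraspanin Cd81 (-1.32) and the neuronal scaffold Ppp1r9a (-2.76) were the others. Ppp1r9a was at 5.61 to 10.9 FPKM uncultured and 0 to 0.784 in N. Meg3 and Ppp1r9a thus reached the filter through the uncultured libraries alone, and the count of 3 is given as a description. In the IGF list Igf1r, the receptor through which IGF2 signals, was at 7.75 to 10.1 FPKM uncultured and 1.02 to 3.29 in N (-1.83 ± 0.496, limma adjusted p = 0.0449). Igfbp7 was higher, and as it was listed at 0 in every uncultured blood library it reached the filter through N alone. None of 7 paternal genes and none of 9 imprint regulators passed. In fibroblasts Meg3 went from 284 FPKM to 8.66 and 32.4 and Igfbp5 from 208 to 7.89 and 8.03, and Osbpl5 and Zfp57 were the other genes of these 4 lists more than 4-fold lower at both days.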

How the data were processed

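The deposited values are FPKM, 1 per gene and library, made by the authors on build mm9 using TopHat and Cufflinks, per the submitters' processing notes. Tool versions and the annotation were not given in the sources used here, and the unit comes from the range of the values. Low values were not whole multiples of a step (at most 1.84% of low genes shared the commonest ratio between 2 libraries), so no counts and no interval for counting error could be derived. FPKM of the 158 symbols on several entries were summed. Gene symbols were used as listed, and classes came from the GRCm38 reference. The libraries were grouped by title.

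Genes whose mean in a fit's libraries reached 1 FPKM were tested on log2(FPKM + 1) with limma 3.58.1 in R 4.3.3 (trend and robust options), two-sided, with Benjamini-Hochberg adjustment over all genes tested and a threshold of 0.05. D and N were paired by cell type and day (5 residual degrees of freedom); N or D against uncultured had cell type as block, and cell types were compared with condition as block. Nothing in the labels says that libraries came from separate animals. The fits were tested on simulated data. Alternatives were 0.1 in place of 1 before the log, no filter, scaling to the upper quartile, no pairing, and leaving out each library or pair.

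The 10 genes, the 9 lists (120 genes, 4 not found and 2 matched by Ensembl ID) and the tests were chosen with earlier results of these data known. All 10 were named, up to 4 genes per list that passed by size, and the 3 genes most correlated with each member above 0 in at least 6 blood libraries. Overlapping genes at member loci and the markers listed at 0 were named after their values were seen. Figures were drawn in Python 3.11.15 with matplotlib 3.10.9.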

Additional observations from a re-analysis of the deposited data

Results flagged for a closer look

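In 5 of 16 groups of 6 blood libraries (the N or the D libraries, for each gene above 0 in any of them) a single library stood apart from the other 5, in each case because it was the only one above 0. The usual rate of about 1 group in 20 by chance does not apply to groups in which 5 values are 0, so these are given as values only. H19 was at 0.536 FPKM in MP 2N, Peg3 at 1.26 in LT-HSC 4N, Plagl1 at 0.252 in ST-HSC 2N and Igf2r at 0.158 in MP 2N. Dlk1 was at 0.848 in MP 4D.

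The change of H19 from uncultured to doxycycline-treated cells differed between fibroblasts and blood cells by -8.42 log2 units (limma adjusted p = 0.0151). The call ended with 0.1 added before the log (adjusted p = 0.2) or without fibroblast 2D (0.133) or 4D (0.0867). It compares with 1 uncultured fibroblast library and with blood cells in which H19 was listed at 0 in 8 of 9 libraries, with H19 at 1433 FPKM in uncultured fibroblasts and at most 5.90 in any blood library.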

How the results depend on the processing

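No member's called difference changed sign under the alternatives run. In D versus uncultured, 1 to 2 members were called with each library left out, 1 without LT-HSC 0 or ST-HSC 0. The H19 call between fibroblasts and blood ended with 0.1 added before the log (0 members) and with either fibroblast D library left out (0 to 1 members over all libraries). Without pairing by cell type and day, Mest, Grb10 and Plagl1 kept their calls between D and N. Over all genes, leaving out a pair or library moved the number called from 1099 to between 529 (without MP day 2) and 1042 in D versus N, from 1072 to between 137 (without ST-HSC 0) and 1787 (without MP 0) in N versus uncultured, from 1922 to between 512 (without LT-HSC 0) and 1752 in D versus uncultured, from 37 to between 0 (without MP 4N) and 66 (without LT-HSC 4D) in MP versus stem cells, and from 125 to between 0 (without fibroblast 2D or 4D) and 210 (without ST-HSC 0) in fibroblasts versus blood. It moved 0 to at most 1 in ST-HSC versus LT-HSC and in both D versus N interactions. With no filter the numbers were 636 in N versus uncultured, 13 in MP versus stem cells and 555 in fibroblasts versus blood, where 0.1 before the log gave 60. Upper-quartile scaling moved the median over all genes from 0.0525 to -0.0913 in fibroblasts versus blood and from 0.0205 to 0.105 in D versus N. In D versus N it gave 638 genes higher and 476 lower, against 555 and 544 without it. The cause of these shifts was not tested. No paired analysis by replicate number was possible because each condition has 1 library. Depth is unknown, so low values carry an error that cannot be given.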
